A study of Mus musculus with 4 samples.

Results

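Brain cells of old and of young mice that carried a glioma in the opposite hemisphere were compared, 1 library of each age. A cell barcode was kept when it held at least 500 unique molecular identifiers (UMIs, 1 per captured RNA molecule), at least 200 genes, at most 20% mitochondrially encoded UMIs and fewer than 3 UMIs of Hmga2, a fetal chromatin gene used here to leave out tumour-like cells. This kept 10807 of 11330 barcodes in the old and 11065 of 12032 in the young tumour library, together 21872 of the 43991 that the same filter kept over all 4 libraries. Within them, 4 classes were set by UMI sums: astrocytes (Slc1a2, Slc1a3 and Aqp4, at least 8), endothelium (Cldn5 and Flt1, at least 4), oligodendrocytes (Mog, Mag and Ermn, at least 6) and microglia (P2ry12 and Tmem119, at least 3). At the edge of the astrocyte rule, 58 old and 85 young barcodes had a sum of 8 and 69 and 104 a sum of 7. For microglia 99 and 128 barcodes had 3 UMIs and 170 and 228 had 2, while the oligodendrocyte rule had 6 and 4 barcodes at 6 UMIs and 9 and 6 at 5.

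All mice were C57BL/6, aged 93 weeks (old) or 8 weeks (young). Each tumour group had received 1000 cells of CT2A-GFP-luc, a mouse glioma line that carries a fluorescent protein and luciferase, by injection into the brain, and each sham group had received saline in the same way. Cells were dissociated 2 weeks later from the hemisphere that was not injected, and 3′ UMI counts were measured with droplets. Each of the 4 groups (old tumour, young tumour, old sham, young sham) is 1 library, the sources used here give no number of mice, and so no difference between ages could be tested. Intervals are 95% intervals that cover counting error only and say nothing of the spread between mice.

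Several families of genes frame the comparison. Major histocompatibility (MHC) class II molecules carry peptides to helper T cells on professional antigen-presenting cells, and the invariant chain Cd74 chaperones them. Class I molecules are made by nearly all cells, and interferon gamma, a product of T and natural killer cells, raises both families together with the guanylate-binding GTPases. In the ageing brain, glia and vessels are known for a shift toward immune and interferon-related genes, while a brain tumour draws lymphocytes and monocytes into the tissue.

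The most numerous group among the shared genes below are the class II genes, whose promoters hold an X box and a Y box a fixed distance apart. Promoters of H2-Aa and H2-Eb1 are shown for that reason, from the RefSeq table (GRCm38.p6), 250 bases before to 50 bases after the start, 5′ to 3′ on the gene's strand. Capitals mark the letters GCAACT, the core of the X box, and CTGATTGG, the core of the Y box. H2-Aa lies at chr17:34287774-34288073 (minus strand) and H2-Eb1 at chr17:34305617-34305916 (plus strand).
H2-Aa: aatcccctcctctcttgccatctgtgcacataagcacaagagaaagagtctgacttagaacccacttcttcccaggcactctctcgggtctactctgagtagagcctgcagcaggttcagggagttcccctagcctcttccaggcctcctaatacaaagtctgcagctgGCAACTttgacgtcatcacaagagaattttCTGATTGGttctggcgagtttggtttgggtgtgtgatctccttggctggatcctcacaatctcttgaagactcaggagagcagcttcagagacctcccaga
H2-Eb1: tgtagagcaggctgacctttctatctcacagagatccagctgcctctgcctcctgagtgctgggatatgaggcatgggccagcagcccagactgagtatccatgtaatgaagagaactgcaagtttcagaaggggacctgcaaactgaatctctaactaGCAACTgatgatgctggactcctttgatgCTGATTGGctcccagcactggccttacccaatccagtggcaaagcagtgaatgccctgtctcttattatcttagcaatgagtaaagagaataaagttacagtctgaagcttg
In H2-Aa the X core began 81 bases and the Y core 51 bases before the start, 30 bases apart. In H2-Eb1 they began 91 and 62 bases before it, 29 bases apart. Searched on both strands, the X core was found in 10.9% and the Y core in 4.10% of 32851 promoters of that length, and both in 0.466%. These letter matches describe the promoters and were not measured as binding sites.

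The libraries themselves differed in ways that touch the results. The kept barcodes had a median of 5008 UMIs in the old and 3794 in the young tumour library, with a median of 4.78% and 3.89% mitochondrially encoded UMIs. The Hmga2 limit left out 2 barcodes in the old and 510 in the young tumour library, and none in either sham library. The 510 held 21.3% of the UMIs of the young tumour barcodes that met the other limits. A further 17 and 135 kept barcodes held 1 or 2 Hmga2 UMIs. Barcodes in more than 1 class made up 4.15% and 3.82%, those in none of the 4 numbered 3391 and 4147, and 27 barcode sequences occurred in both libraries. Among kept barcodes, astrocytes made up 22.7% in the old and 20% in the young tumour library, endothelium 12.9% and 13.1%, oligodendrocytes 17.9% and 12.5%, and microglia 24.3% and 29.5%. The ratio of shares, old over young, was 1.43 (1.34 to 1.52) for oligodendrocytes and 0.823 (0.788 to 0.860) for microglia, against 2.67 and 0.712 in the sham pair. For each class, 12 markers that its rule did not use were summed. Endothelial markers (Pecam1 and Kdr among them) stood at 12604 and 12461 CPM in old and young tumour endothelium and at 495 to 752 CPM in the other old classes, and oligodendrocyte markers at 46460 and 56341 CPM in their class and at 1843 to 2615 CPM in the other old classes. Microglia markers stood at 35619 and 38112 CPM in microglia and at 1231 to 1888 CPM in the other old classes. The astrocyte list, which holds Cst3, a gene that microglia also express strongly, summed to 23836 CPM in old astrocytes and 46888 in old microglia and does not separate these classes. Cst3 made up 46117 CPM of the latter sum, while Gja1, a gap junction protein of astrocytes, was at 1110 CPM in old astrocytes and 89.7 in old microglia. None of the 12 was called different between ages in its own class. Which cells survive dissociation can set such shares, and that was not tested.

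Levels are CPM, the UMIs of a gene in a class scaled to the same total in each library, and a ratio is the old tumour CPM over the young tumour CPM. A gene entered with at least 20 CPM in 1 of the 2 libraries and at least 50 UMIs over both, and it was called higher or lower at a ratio of at least 2 or at most 0.5 with an interval that leaves out 1. Over all kept barcodes 93 of 7519 genes were called higher in old (1.24%) and 166 lower (2.21%). In astrocytes 29 of 7841 were called higher (0.37%) and 56 lower (0.714%), and in endothelium 44 of 7108 higher (0.619%) and 43 lower (0.605%). In oligodendrocytes 96 of 6268 were called higher (1.53%) and 53 lower (0.846%), and in microglia 68 of 6613 higher (1.03%) and 62 lower (0.938%). In the sham pair, measured the same way, 1.51% were called higher and 0.586% lower over all barcodes, 1.38% and 3.54% in astrocytes, 1.05% and 1.68% in endothelium, 0.909% and 0.658% in oligodendrocytes and 1.6% and 2.59% in microglia. The median log2 ratio of the genes entered in the tumour pair lay between -0.03 and 0.03 in all 5 comparisons, so the scaling gave no general shift. Higher calls outnumbered lower ones most in oligodendrocytes, and lower calls outnumbered higher ones in astrocytes. The higher oligodendrocyte calls included 6 of 6 entered neutrophil, 4 of 7 choroid plexus, 3 of 6 ependymal and 2 of 8 endothelial markers. None of 9 astrocyte or 12 microglia markers was called there. Endothelial markers summed to 495 CPM in old and 287 in young oligodendrocytes, and the part of RNA from other cells was not tested.

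Many of these calls rested on few barcodes. Each call was therefore repeated after removal of the barcodes with the highest doublet scores (934 old, 979 young) and, as a choice made after the data were seen, after removal of the 5 barcodes of each library and class with most UMIs of the gene. Both repeats again called 82 of the 93 higher genes over all barcodes, 14 of 29 in astrocytes, 27 of 44 in endothelium, 43 of 96 in oligodendrocytes and 43 of 68 in microglia. Of the lower genes they again called 147 of 166 over all barcodes, 28 of 56 in astrocytes, 16 of 43 in endothelium, 27 of 53 in oligodendrocytes and 46 of 62 in microglia.

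**Figure D1:**
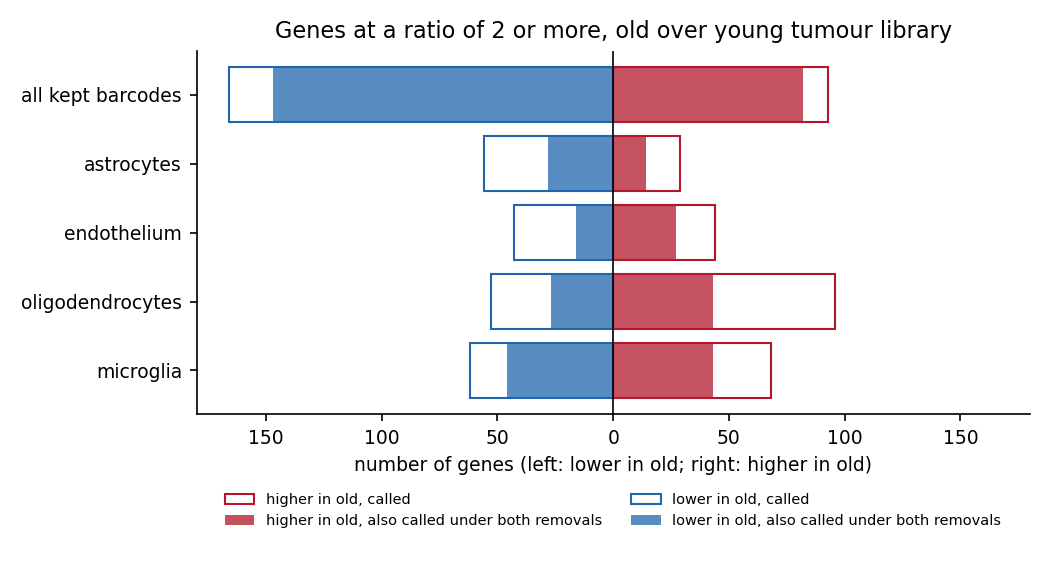
Number of genes called at a ratio of 2 or more, old over young tumour library, over all kept barcodes and in each class. Open bars give all calls, and filled bars those made again after both removals of barcodes (for example 43 of the 96 genes higher in oligodendrocytes).

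Few changes were shared by the 4 classes. Of 4820 genes that entered in all 4, 3 were called higher in each class (0.0622%: S100a8, S100a9 and Brd1) and 6 lower in each (0.124%: H2-Aa, H2-Ab1, H2-Eb1, Cd74, Ccl5 and Hbb-bs). Among the same 4820 genes, the share called higher was 0.166% in astrocytes, 0.29% in endothelium, 1.16% in oligodendrocytes and 0.436% in microglia. The share called lower was 0.353% in astrocytes and in endothelium, 0.539% in oligodendrocytes and 0.228% in microglia. Counted over genes that entered in any class, 160 of the 192 called higher were called so in 1 class, 22 in 2, 7 in 3 and 3 in all 4. Of 156 called lower, 121 were so in 1 class, 18 in 2, 11 in 3 and 6 in 4. The lower genes of astrocytes and microglia had 24 in common, 42.9% of the astrocyte and 38.7% of the microglial list. These were counted before any removal, and 28 of 56 astrocyte and 46 of 62 microglial lower genes were called again under both removals. After removal of likely doublets, 1 gene was called higher (Brd1) and 1 lower (Hbb-bs) in all 4 classes. In all, 6 genes were called in opposite directions in different classes: Lcn2, Col1a2, Igkc, C4b, H2-Q6 and H2-Q7.

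**Figure D2:**
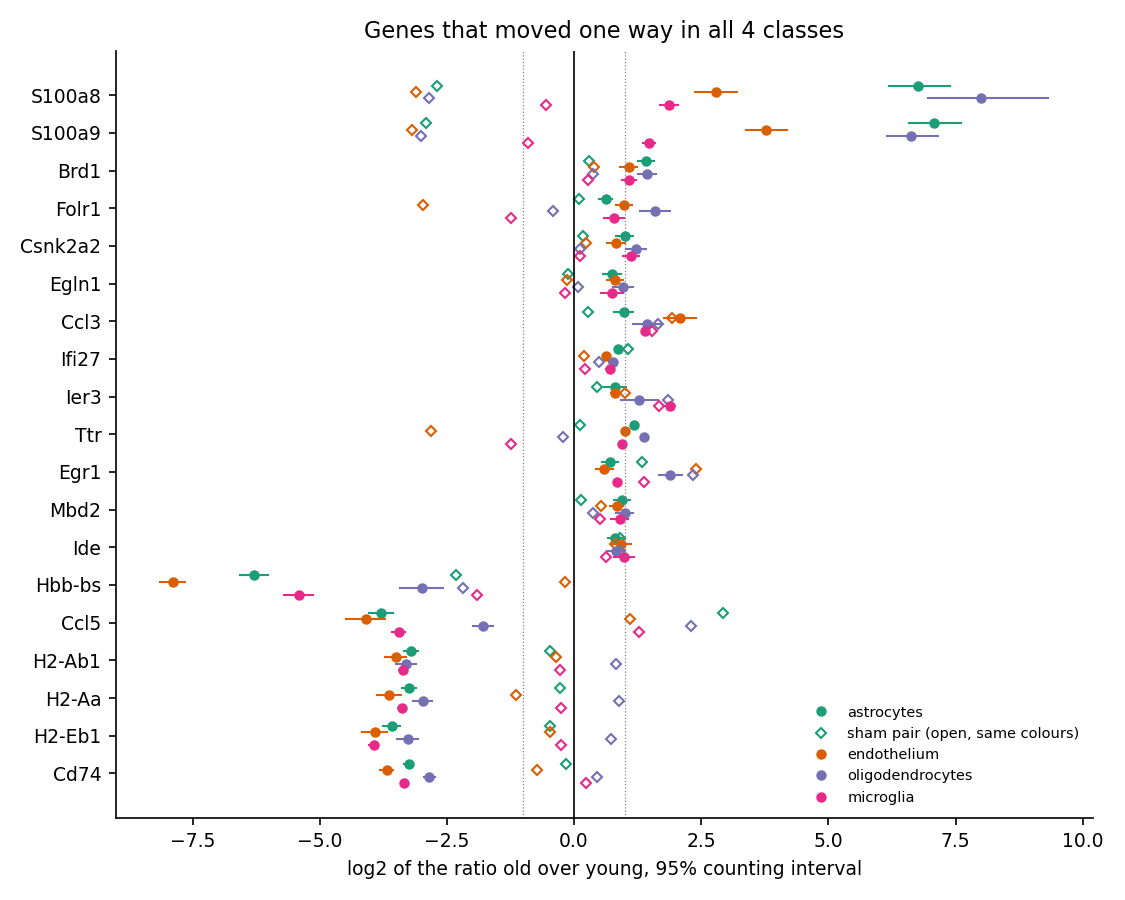
log2 ratios, old over young, of the genes called the same way in all 4 classes at a fold of 2 (S100a8, S100a9, Brd1 and the 6 lower genes) or of 1.5 (the other 10), 1 colour per class, with 95% counting intervals. Filled circles are the tumour pair and open diamonds the sham pair; Cd74 and the 3 class II chains lie between -3.94 and -2.85 in the tumour pair, and Brd1 between 1.08 and 1.43.

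The class II genes were the most numerous shared group, though in oligodendrocytes none of the 4 was called without likely doublets. They lie together on chromosome 17 (H2-Ab1 at chr17:34257689-34269419, H2-Aa at chr17:34282744-34287823 and H2-Eb1 at chr17:34305867-34316674, GENCODE release 21 on GRCm38), apart from Cd74 on chromosome 18. Over all kept barcodes Cd74 stood at 354 CPM in the old and 3572 in the young tumour library, against 332 and 339 in the old and young sham libraries, a tumour ratio of 0.0990 (0.0977 to 0.100) against 0.978 in sham. The young tumour library stood apart from the other 3, and the old tumour library lay next to both sham libraries. In such sums, fewer cells of a type and less RNA per cell cannot be told apart. H2-Aa, the alpha chain whose promoter is shown above, had the same order at 135, 1324, 119 and 121 CPM, a tumour ratio of 0.102. H2-Eb1, a beta chain, had a ratio of 0.0755 and H2-Ab1, the partner of H2-Aa, of 0.0925.

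By class, Cd74 was at 78.1 CPM in old and 743 in young astrocytes (ratio 0.105), 41.5 and 535 in endothelium (0.0776), 60.2 and 433 in oligodendrocytes (0.139) and 305 and 3078 in microglia (0.0990). The ratio lay between 0.0776 and 0.139 in classes whose levels differed several-fold. In sham microglia Cd74 was at 135 and 114 CPM, below the old tumour level. The highest level was found outside the 4 classes, at 872 CPM in old and 8665 in young tumour. In the young tumour library there were 0.337 to 0.381 H2-Aa UMIs for each Cd74 UMI in the 4 classes and in the barcodes of none, and in the old tumour library 0.326 to 0.400.

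**Figure D3:**
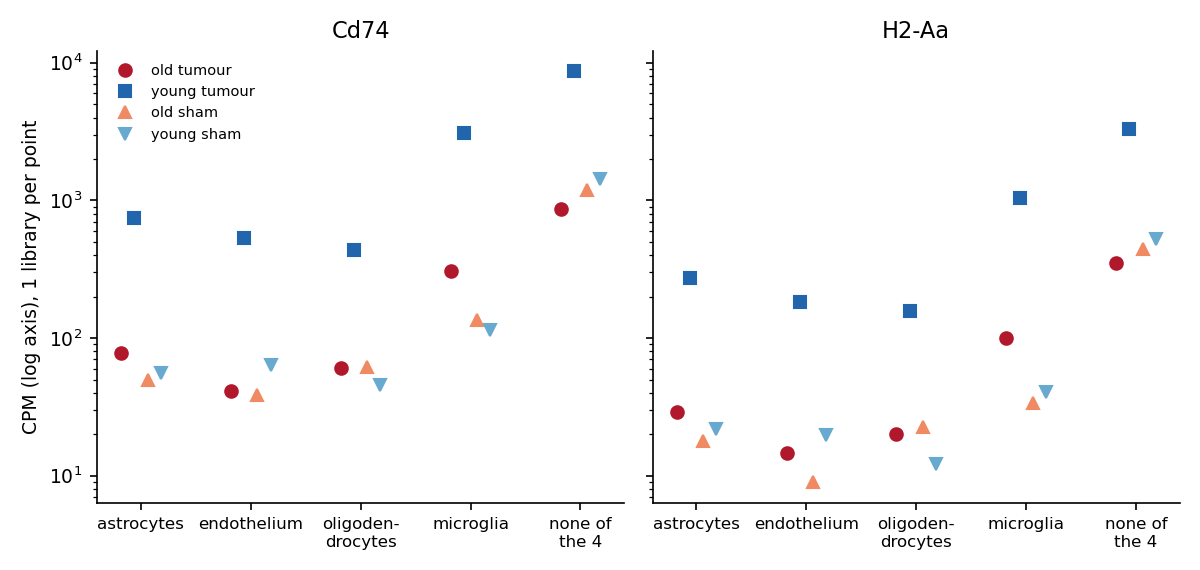
Cd74 and H2-Aa in the 4 libraries, by class and in barcodes of no class, CPM on a log axis, 1 point per library. The young tumour library is above the other 3 in each class.

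Removal of likely doublets changed these values unequally. In microglia Cd74 kept a ratio of 0.100 (315 and 3152 CPM). In astrocytes the young level went from 743 to 247 CPM with a ratio of 0.226, and in endothelium from 535 to 108 CPM with a ratio of 0.135. In oligodendrocytes the levels went to 28.8 and 41.8 CPM, a ratio of 0.689, and the call was lost. The 5 barcodes richest in Cd74 held 42.1% of its UMIs in young oligodendrocytes, 33.5% in endothelium, 21.7% in astrocytes and 6.34% in microglia. T and natural killer cell markers moved with these genes: all 16 listed markers summed to 214 CPM in old tumour and 1044 in young tumour over all barcodes (137 and 64.2 in sham). All 8 that entered were called lower, against 2.21% of all genes. Within classes the sums were 28.4 and 228 CPM in astrocytes, 10.9 and 143 in endothelium, 46.4 and 131 in oligodendrocytes and 51.7 and 451 in microglia. Markers at 0 numbered 4, 5, 3 and 1 in these classes in old tumour and 2, in oligodendrocytes, in young tumour. Ccl5 is one of the 16. Their part in the class values was not tested.

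The rest of the class II list was less even. Over all barcodes 7 of the 8 entered members were called lower, against 2.21% of all genes. The list median log2 was -2.34, against a median of -0.03 over all genes. In microglia H2-Aa, H2-Ab1, H2-Eb1 and Cd74 were called lower, while H2-DMa and H2-DMb1, which load peptide onto class II in the endosome, had ratios of 0.840 and 0.818 (H2-DMa at 306 and 364 CPM). In astrocytes both were called lower (0.443 and 0.451), at levels of at most 47.8 CPM, and neither was called again there under both removals.

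Ccl5, a chemokine made by T and natural killer cells (chr11:83525778-83530518), stood at 97.2 CPM in old tumour and 645 in young tumour over all barcodes, and at 60.8 and 24.4 in old and young sham. Its ratio was 0.151 in the tumour pair and 2.49 in the sham pair. By class the tumour ratio was 0.0723 in astrocytes, 0.0587 in endothelium, 0.290 in oligodendrocytes and 0.0917 in microglia. The oligodendrocyte call was lost without likely doublets (0.552) and when each barcode was thinned to 1000 UMIs (0.620).

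Hbb-bs, a beta globin of red blood cells (chr7:103826534-103828096), had 61.1 CPM in old and 732 in young tumour, and 484 and 1478 in old and young sham. The other globin genes Hba-a1, Hba-a2 and Hbb-bt were also called lower in all classes but oligodendrocytes, where they did not enter. Globin reads of near-identical copies cannot be assigned with certainty. In endothelium Hbb-bs was at 11.5 CPM in old and 2714 in young tumour and at 3068 and 3450 in the sham pair, so there the old tumour library stood apart. The tumour ratio stayed below 0.5 in each class under both removals, from 0.00188 in endothelium to 0.143 in oligodendrocytes.

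S100a8 and S100a9, the subunits of calprotectin and leading genes of neutrophils, were the highest shared genes (chr3:90668978-90670035 and chr3:90692632-90695721). S100a9 was at 1261 CPM in old and 265 in young tumour over all barcodes, the ratio being 4.76 (4.68 to 4.84). In sham it was at 491 and 2031 CPM, where the order of the ages was opposite. The tumour ratio was 135 in astrocytes, 13.7 in endothelium, 99 in oligodendrocytes and 2.77 in microglia. The 5 richest barcodes held 86.6% to 97.6% of its UMIs in each old class. Without likely doublets the ratio was 23.8 in astrocytes, the calls in endothelium and oligodendrocytes were lost, and that in microglia turned to lower (0.185, with 10.5 and 56.7 CPM). Neutrophil markers moved with them: the 10 listed, with S100a8 and S100a9 among them, summed to 2807 CPM in old and 614 in young tumour, and to 1127 and 4349 in the sham pair. Within classes the sums were 903 and 93.2 CPM in astrocytes, 162 and 54.5 in endothelium, 740 and 10.5 in oligodendrocytes and 428 and 232 in microglia, with 3 markers at 0 in young oligodendrocytes. Whether neutrophil RNA or neutrophils caught with another cell set the class values was not tested.

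Brd1 (chr15:88687034-88734233, minus strand), a bromodomain and PHD finger scaffold of a histone acetyltransferase complex, was the 1 shared higher gene whose UMIs were spread over many barcodes. It stood at 80.6 CPM in old and 36.0 in young tumour, and at 82.0 and 67.8 in old and young sham. The young tumour library was thus the low one of the 4. The tumour ratio was 2.24 over all barcodes, 2.67 (2.40 to 2.98) in astrocytes, 2.11 (1.88 to 2.37) in endothelium, 2.70 (2.38 to 3.07) in oligodendrocytes and 2.12 (1.93 to 2.32) in microglia, against 1.21 to 1.31 in sham. At most 6.73% of its UMIs lay in 5 barcodes of any class of either tumour library. It was called again in all 4 classes under both removals, and after thinning its ratio in microglia fell short of the limit of 2.

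At a fold of 1.5, 13 of 4820 genes were higher in all 4 classes (0.27%) and 6 lower (0.124%), 10 higher genes more than at a fold of 2 and no more lower ones. Csnk2a2, a catalytic subunit of casein kinase, was at 60.5 CPM in old tumour and 30.4 in young tumour, and at 61.4 and 54.6 in sham, so that here too the young tumour library was the low one. Ide, the insulin-degrading enzyme, was at 58.6 and 30.9 CPM in old and young tumour and at 60.0 and 33.2 in old and young sham. Its ratio ran from 1.74 to 1.97 over the classes in the tumour pair and from 1.55 to 1.87 in the sham pair, an age difference of similar size with and without a tumour. Mbd2, a reader of methylated DNA, had ratios of 1.78 to 1.99 (1.10 to 1.44 in sham), and Egln1, an oxygen-sensing prolyl hydroxylase, of 1.67 to 1.95 (0.889 to 1.05 in sham). Ifi27, an interferon-induced gene, the immediate early genes Ier3 and Egr1, the chemokine Ccl3, and Ttr and Folr1, choroid plexus genes, made up the rest.

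Choroid plexus genes formed the main group of higher genes over all barcodes. Of 11 entered markers 9 were called higher, against 1.24% of all genes. Their median log2 was 1.20, against 0.07 in sham. Ttr, the thyroid hormone carrier of the cerebrospinal fluid, was at 55377 CPM in old and 18729 in young tumour, with both sham libraries between them (30678 and 26201). Kl, the ageing-related hormone receptor klotho, had a ratio of 2.21 and the homeobox gene Otx2 of 2.30. Krt18, a keratin of simple epithelia, was at 99.8 and 27.9 CPM. When the 4 classes were given equal weight, 45 genes were called higher in place of 93.

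Of the 15 lowest genes ranked over all barcodes, most are known from immune cells. Immunoglobulin and mast cell protease genes came from few barcodes: Ighg2c was at 0 in old and 58.3 CPM in young tumour, with 99.1% of the young UMIs in 5 barcodes, and Mcpt2 at 0.559 and 104 CPM with 85.2%. Cxcl9, a chemokine induced by interferon gamma that attracts T cells, was at 3.76 and 164 CPM with 10.6% in 5 barcodes, and in sham at 4.43 and 0.425. Ccr7, a homing receptor of lymphocytes and dendritic cells, was at 0.386 and 23.4 CPM, and Ly6i, of the Ly6 family of myeloid surface proteins, at 0.599 and 35.4. Cd3d, a chain of the T cell receptor complex, was at 13.1 and 46.5 CPM. Of 15 proliferation genes 7 were called lower, against 2.21% of all genes. Among them were Top2a (16.3 and 46.7 CPM) and Mki67 (12.2 and 30.9 CPM). In sham both were also lower in old, with ratios of 0.594 and 0.631 that were not called. Sox11, a transcription factor of neuroblasts, was at 24.6 and 76.0 CPM.

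Avp, which encodes vasopressin, a peptide of hypothalamic neurons, was among the 15 lowest as well, at 1.27 CPM in old and 32.3 in young tumour (ratio 0.0391, 0.0315 to 0.0481) and at 5.42 and 2.71 in sham. Barcodes with at least 1 Avp UMI made up 0.861% in old and 9.27% in young tumour, and 0.231% and 2.60% after thinning to 1000 UMIs. In young tumour the share was 9.56% in astrocytes, 9.41% in endothelium, 9.81% in oligodendrocytes, 9.57% in microglia and 8.77% outside the 4 classes. The share was thus alike in each class, and none of them is read as expressing the gene. Avp was called lower in astrocytes (1.28 and 20.2 CPM) and in microglia (2.04 and 24.2), and it did not enter in the other classes.

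Class I genes were lower in old astrocytes and not in old endothelium. In astrocytes 7 of 13 entered class I genes were called lower in old, against 0.714% of all genes entered there. Their median log2 was -1.15. H2-K1, a classical class I heavy chain, was at 325 CPM in old and 774 in young tumour astrocytes, and at 216 and 169 in sham. Psmb9, a subunit of the immunoproteasome, was at 32.7 and 89.5 CPM, and Tap1, which carries peptides into the endoplasmic reticulum, at 20.5 and 46.7. In oligodendrocytes 3 of 8 and in microglia 2 of 16 were called lower, against 0.846% and 0.938% of all genes. Their list medians were -0.70 and -0.58. In endothelium none of 16 was called lower and 2 were called higher, against 0.605% and 0.619% of all genes there. The list median was 0.22, and H2-K1 was at 794 and 622 CPM. The difference between classes was not tested.

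The interferon gamma GTPases were likewise lower in astrocytes. In astrocytes 6 of 9 entered members were called lower (median log2 -1.23), in microglia 3 of 8 (-0.56) and in endothelium 0 of 11 (-0.06). Over all genes, 0.714%, 0.938% and 0.605% were called lower in these classes. In sham no member was called in these classes. The sham medians were -0.68 in astrocytes (4 entered), 0.25 in microglia (5) and 0.22 in endothelium (11). Gbp2, a guanylate-binding protein that attacks vacuoles of parasites, was at 29.9 and 106 CPM in astrocytes (ratio 0.281), 16.1 and 45.2 in microglia (0.356) and 75.2 and 90.6 in endothelium (0.829). Igtp, an immunity-related GTPase, had ratios of 0.306, 0.973 and 0.963 in these classes. Gbp2, Igtp, Irgm1 and Irgm2 were called again in astrocytes under both removals, and the other lower members were not. Among the wider list of interferon response genes none of 21 was called in astrocytes, where 0.37% of all genes were called higher and 0.714% lower. The median of that list was 0.12, and Ifit3, an RNA-binding antiviral protein, had a ratio of 1.67.

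**Figure D4:**
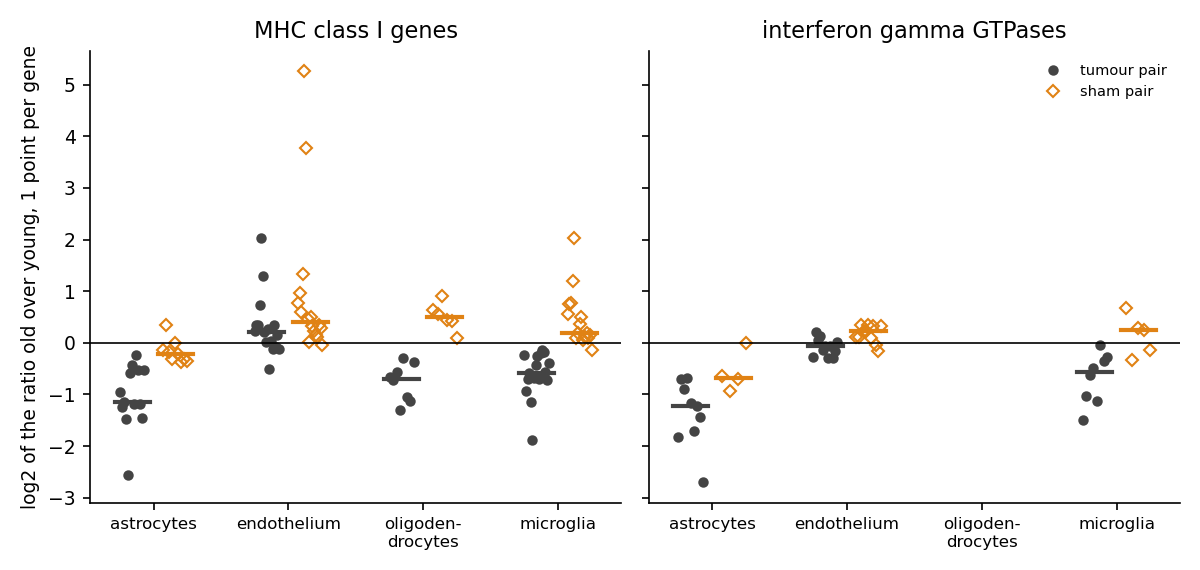
log2 ratios, old over young, of MHC class I genes and interferon gamma GTPases by class, 1 point per gene that entered, with a bar at the median. Filled circles are the tumour pair and open diamonds the sham pair; in the tumour pair the medians are -1.15 and -1.23 in astrocytes and 0.22 and -0.06 in endothelium, and no GTPase entered in oligodendrocytes.

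H2-Q6 and H2-Q7, non-classical class I genes, were called in opposite directions. H2-Q7 was higher in old endothelium (147 and 60.0 CPM, ratio 2.45) and lower in old astrocytes (15.3 and 90.3, ratio 0.170), oligodendrocytes (ratio 0.407) and microglia (45.5 and 169, ratio 0.270). The oligodendrocyte call was not made again under both removals. In sham endothelium H2-Q7 was at 125 CPM in old and 9.21 in young, a ratio of 13.6, and in sham microglia at 29.7 and 7.23. Old endothelium was thus high with and without a tumour, and 41.8% of the young tumour endothelial UMIs lay in 5 barcodes. H2-Q6 was at 51.5 and 12.5 CPM in tumour endothelium and at 54.7 and 1.43 in sham, and it was called lower in tumour microglia (ratio 0.455). The H2-Q genes are near copies of one another, so the split of their reads is uncertain.

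In astrocytes, reactive genes were lower in old or not called. Serpina3n, a secreted protease inhibitor of reactive astrocytes, was at 9.92 and 42.5 CPM (ratio 0.233), and Serping1, the C1 inhibitor, at 12.2 and 41.6 (0.294). Gfap, the intermediate filament of reactive astrocytes, was at 189 and 341 CPM, a ratio of 0.554 that was not called, and at 128 and 54.3 in old and young sham. In sham, old was thus above young for Gfap and Serpina3n (ratios 2.35 and 2.59), though Serpina3n was not called there. The 4 astrocyte genes called higher in both pairs were Tmem59l, Caly, Serpinb1a and Pcdhb14. Serpinb1a, an inhibitor of neutrophil proteases, was at 90.6 and 41.6 CPM in the tumour pair and 99.3 and 43.8 in the sham pair. Glutamate and potassium handling genes had no call among 11 (median log2 -0.01), where 0.37% of all genes were called higher and 0.714% lower.

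C4b, a complement component of the classical pathway and a known gene of ageing glia, also moved in opposite directions. In oligodendrocytes it was at 237 CPM in old and 72.0 in young tumour (ratio 3.29), and at 160 and 20.6 in sham (7.76). In astrocytes it was at 105 and 246 CPM in the tumour pair (0.426) and at 77.0 and 17.5 in the sham pair (4.41), and in microglia at 22.4 and 65.5 (0.342). In all 3 classes the young tumour library was above the young sham library.

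Of the 5 comparisons, endothelium had the largest share of higher genes that were also called in sham. Of 39 genes called higher in tumour endothelium that entered in both pairs, 20 (51.3%) were also called higher in sham, where 0.922% of all such genes were. The pairs share no library. Cyp2e1, a cytochrome P450 that oxidizes ethanol and small solvents, was at 44.3 CPM in old and 4.89 in young tumour and at 63.5 and 3.97 in sham (ratios 9.06 and 16). Rasgrf2, an exchange factor for Ras and Rac, was at 33.3, 5.21, 40.6 and 6.03 CPM in the same order (6.39 and 6.74), and Lypd1, a Ly6 family modulator of acetylcholine receptors, at 83.4, 18.7, 79.0 and 21.3 (4.46 and 3.70).

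These genes are from those called higher in both pairs, so old above young within each pair follows from that choice. Both old libraries were also above both young ones. Fmo2, a flavin monooxygenase, was at 157 and 44.8 CPM in tumour and 170 and 54.5 in sham, and its family member Fmo1 at 99.8 and 48.6 and at 104 and 46.7. Xdh, the xanthine dehydrogenase that forms uric acid, was at 190 and 90.6 CPM and at 159 and 78.3. All 6 genes were called again under both removals. Adgrl3, an adhesion receptor, and Auts2, a chromatin regulator, were called lower in both pairs (tumour ratios 0.450 and 0.469). Blood-brain barrier genes had no call among 21 in tumour endothelium (median log2 -0.02), where 0.619% of all genes were called higher and 0.605% lower.

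**Figure D5:**
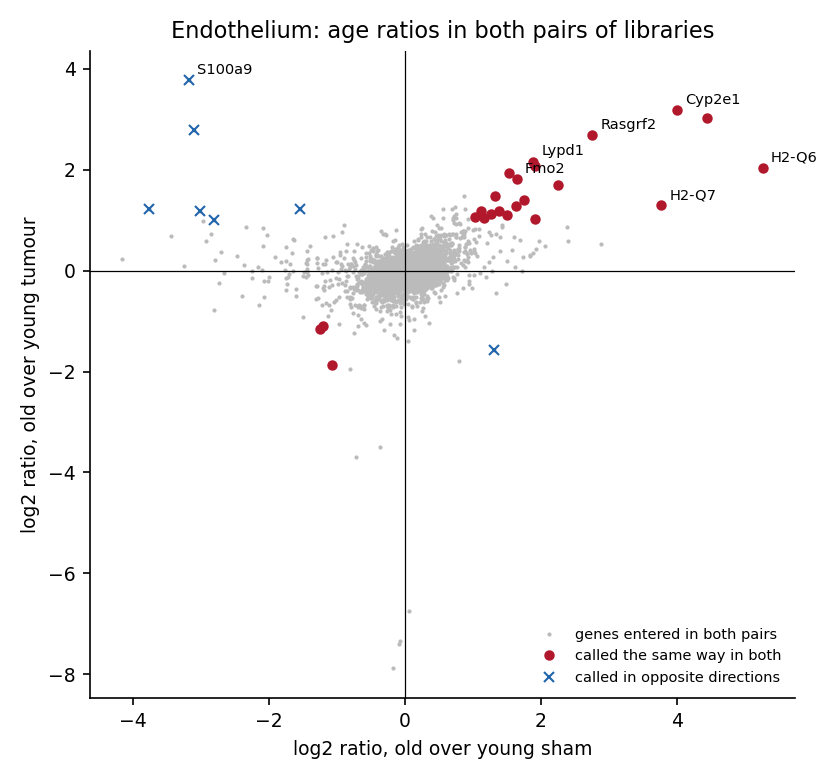
log2 ratios, old over young, of 6938 genes in endothelium, sham pair on the x axis and tumour pair on the y axis, 1 point per gene. Filled circles are genes called the same way in both pairs (20 higher and 3 lower), and crosses genes called in opposite directions, S100a9 among them.

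Some endothelial calls rested on few barcodes. Spp1, the secreted protein osteopontin, was at 207 and 25.5 CPM with 97.0% of the old UMIs in 5 barcodes, and without those its log2 ratio was -0.913. S100a5, a calcium-binding protein known from olfactory neurons, was at 26.7 and 1.06 CPM with 82.6% in 5 barcodes. Cxcl9 was at 0.0828 and 112 CPM, with 81.0% of the young UMIs in 5 barcodes. Other genes were spread more widely. Ddit4, an inhibitor of the growth kinase mTOR that glucocorticoids and hypoxia induce, was called lower in endothelium (77.0 and 173 CPM) and in microglia (20.7 and 57.7), with the 2 sham levels between these in endothelium (117 and 106). Itga4, an integrin of leukocytes, was at 10.3 and 39.7 CPM.

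In oligodendrocytes many calls in both directions were made in sham too. Of 75 higher genes that entered in both pairs 24 (32.0%) were called higher in sham, where 0.735% of all were, and of 41 lower genes 22 (53.7%) were called lower there, where 0.571% were. Hopx, a homeodomain protein without DNA binding, was at 297 and 66.0 CPM in tumour and 258 and 92.4 in sham. Clic5, an intracellular chloride channel protein, was at 33.5 and 7.26 CPM and at 29.5 and 7.13, and Dpyd, which degrades uracil and thymine, at 24 and 6.24 and at 25.1 and 6.48.

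Among the lower genes, Itih3, a hyaluronan-binding matrix protein, was at 28.5 and 108 CPM in tumour and 28.5 and 122 in sham. Man1a, a mannosidase of the Golgi, was at 14.0 and 54.0 CPM and at 14.4 and 61.0, and Ctps, which makes CTP, at 12.8 and 61.3 and at 22.8 and 63.4. Each is from the genes called lower in both pairs, so old below young within each pair follows from that choice. The myelin list had no call among 17 entered genes (median log2 -0.32), with Mbp, a structural protein of compact myelin, at 4729 and 4650 CPM, and Cldn11, its tight junction protein, at 1090 and 1636. Cholesterol synthesis genes had no call among 18 (median -0.42). Over all genes in tumour oligodendrocytes, 1.53% were called higher and 0.846% lower.

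Some immediate early genes were higher in old oligodendrocytes. Of 20 entered members 7 were called higher (median log2 0.74), against 1.53% of all genes in this class. Of the 7, Fosb, Klf2, Fos and Egr1 were called again under both removals and Klf4, Ier2 and Ier3 were not. In the other classes 3 of 20 were called in microglia (0.42), none of 22 in endothelium (0.33) and none of 19 in astrocytes (0.13). Over all genes, 1.03%, 0.619% and 0.37% were called higher in these classes. In sham 13 of 21 were called higher in oligodendrocytes, 8 of 22 in microglia, 16 of 22 in endothelium and 5 of 21 in astrocytes. The sham shares over all genes were 0.909%, 1.6%, 1.05% and 1.38% in the same order. The difference between classes was not tested. Egr1, a zinc finger factor induced within minutes of a stimulus, was at 72.5 and 19.5 CPM in tumour and 261 and 51.3 in sham, and Fos, a subunit of AP-1, at 269 and 93.0 and at 943 and 210. Both old libraries were above the young library of the same treatment, and the old sham library was highest. These genes are also known to respond to tissue dissociation, and its part was not tested.

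Inflammatory cytokines were split in microglia. Tnf, the cytokine tumour necrosis factor, was at 118 CPM in old and 24 in young tumour (ratio 4.92, 4.38 to 5.53) and at 519 and 52.9 in sham (9.80). Il1a, an alarm cytokine of the interleukin 1 family, was at 180 and 66.3 CPM and at 710 and 136, and Ccl4, a chemokine, at 1166 and 420 and at 3132 and 878. In all 3 the old sham library was highest and the young tumour library lowest. Of 15 entered members of the list 4 were called higher (Tnf, Il1a, Ccl3 and Ccl4) and 3 lower (Cxcl9, Ccl5 and Ccl7), for a median log2 of 0.00. In sham 10 of 13 were called higher and none lower (median 1.84). Over all genes in microglia, 1.03% were called higher and 0.938% lower in the tumour pair, and 1.6% and 2.59% in sham.

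Other microglial genes included Naalad2, a peptidase that cleaves N-acetylated peptides, at 65.1 and 17.3 CPM in tumour and 57.5 and 13.5 in sham, and Ildr2, a lipid-related membrane receptor, at 86.5 and 22.2 and at 71.0 and 46.4. Nfkbid and Nfkbiz, nuclear regulators of NF-kappaB, had ratios of 2.76 and 2.08. Apoe, the lipid carrier induced in disease-associated microglia, was at 6072 CPM in old and 10112 in young tumour, a ratio of 0.601 below the limit for a call, and at 3803 and 2765 in sham. Lgals3, a galectin of activated myeloid cells, was called lower (41.5 and 95.5 CPM) and Lpl, a lipase, higher (57.9 and 26.3). Homeostatic microglia genes had no call among 12 (median log2 -0.07), where 1.03% of all genes were called higher and 0.938% lower.

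A group of microglial genes was low in 3 libraries and high in young tumour. Cfb, complement factor B, was at 0.958 and 31.0 CPM, C3, the central complement component, at 7.28 and 32.1, and Ms4a7, a membrane protein of macrophages, at 14.1 and 164. Clec12a, an inhibitory receptor of monocytes and dendritic cells, was at 2.30 and 33.2 CPM, and Cd72, a receptor shared by B cells and myeloid cells, at 24.5 and 126. Monocyte and macrophage markers moved with them, at a sum of 840 CPM in old and 1561 in young tumour microglia for the 12 listed, against 686 and 551 in sham. Whether monocyte-derived cells that meet the microglia rule account for these genes was not tested.

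A second group of microglial genes stood opposite to sham. Ccn3, a matricellular protein, was at 137 and 21.7 CPM in old and young tumour and at 42.0 and 115 in sham. Efemp1, an extracellular matrix protein, was at 41.0 and 8.79 CPM and at 16.1 and 34.5, and Col1a2, a chain of type I collagen, at 36.0 and 11.5 and at 14.3 and 43.2. The 5 richest barcodes held 44.5% and 63.6% of the Ccn3 UMIs in old and young tumour microglia. These are genes of fibroblasts, whose 10 listed markers summed to 413 and 345 CPM in microglia, and their part in the result was not tested.

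Across genes, the age ratios of the 2 pairs were loosely related. Over the 6126 to 7553 genes that entered in both pairs, the correlation of log2 ratios (Pearson and Spearman) was 0.22 and 0.50 in oligodendrocytes, 0.25 and 0.28 in endothelium, 0.16 and 0.35 in astrocytes, 0.11 and 0.06 in microglia and 0.19 and 0.24 over all barcodes. Genes are not independent replicates, and the values describe these libraries. Of genes called higher in the tumour pair, 17 of 58 in microglia (29.3%), 4 of 22 in astrocytes (18.2%) and 6 of 73 over all barcodes (8.22%) were also called higher in sham, where 1.26%, 0.702% and 1.12% of all such genes were. Of the same genes 13 in microglia, 4 in astrocytes and 12 over all barcodes were called lower in sham, as were 6 in endothelium and 5 in oligodendrocytes. Nuclear oxidative phosphorylation genes (none called of 30 in each class), unfolded protein response genes and heat shock genes showed no call in any of the 5 tumour comparisons. Over all genes, at most 1.53% were called higher and at most 2.21% lower in any of these comparisons.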

How the data were processed

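Single cells from 4 libraries were measured as 3′ UMI counts per gene and barcode. The authors deposited raw counts as sparse matrices, written by Cell Ranger 6.1.0 per the file headers. The submitters' processing notes name Cell Ranger 3.0.2, Seurat 2.3.4 and mm10, and the annotation release is not given in the sources used here. Total UMIs were 76652484 (old tumour) and 75924528 (young tumour). Counts were summed per library and class and scaled to CPM with Python 3.11.15, numpy 2.4.6, scipy 1.17.1, pandas 2.3.3, scanpy 1.11.5 and matplotlib 3.10.9. Ratios have exact conditional Poisson intervals at 95% for counting error only, and counts of 0 were replaced by a floor of 3 UMIs per library, which gives a bound. Genes that define a class were not called in it. With 1 library per group no test was possible. Doublets were kept, and an alternative removed the highest Scrublet scores at 0.8% per 1000 barcodes. The scripts were tested on simulated data. Positions come from GENCODE release 21, in which 99.8% of gene IDs were found. Members, gene lists and comparisons were chosen with earlier results of these data known. Genes named are the shared genes (up to 20 each way), the 15 highest and 15 lowest called ratios over all barcodes, the 8 highest and 8 lowest in each class, without mitochondrially encoded, ribosomal protein, hemoglobin, sex-linked and provisional gene names, and members of the lists. Further genes, chosen after their values were seen, come from those called again under both removals or called in both pairs. Alternatives varied the cell, gene, Hmga2, marker and fold limits, scaling and thinning. Results for 2 genes are not reported here.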

Additional observations from a re-analysis of the deposited data

Results flagged for a closer look

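The age ratio of the tumour pair, divided by that of the sham pair, is given for genes called in opposite directions in the 2 pairs. These genes are listed because age went one way with a tumour and the other way without. The difference itself was not tested, since each group is 1 library. Over all kept barcodes the quotient was above 1 for Ltf (40.3), Camp (30.1), Ngp (29.2), Wfdc21 (21.9), S100a9 (19.7), S100a8 (16.8), Chil3 (15.5), Lcn2 (11.8), Retnlg (10.8), Slpi (9.39), Ifitm6 (8.27) and Hp (4.98). It was below 1 for Ccl5 (0.0604), Cxcl10 (0.0882), H2-Q7 (0.0925), Dusp2 (0.104), Ifi27l2a (0.158) and Bcl2a1a (0.177). For the 4 largest quotients the young tumour level rests on few barcodes. There the 5 richest held 79.0% of the Ltf, 91.0% of the Camp, 89.2% of the Ngp and 53.4% of the Wfdc21 UMIs.

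In astrocytes the quotient was 0.0965 for C4b, 698 for S100a8, 1015 for S100a9 and 53396 (15040 to 189565) for Camp. For Ngp, at 0 in young tumour astrocytes and set there to the floor of 3 UMIs, it was 52342 (12482 to 219486). In oligodendrocytes it was 763 (347 to 1679) for Lcn2, 1847 (873 to 3909) for S100a8, 796 (562 to 1126) for S100a9, 72850 (9509 to 558102) for Camp and 20878 (4411 to 98820) for Ngp. These rest on few barcodes: the 5 richest held 96.8% of the Camp and 98.5% of the Ngp UMIs in old tumour oligodendrocytes, against 1 and 2 UMIs in young tumour. In endothelium it was 124 for S100a9, 59.3 for S100a8, 31.6 for 6330403K07Rik, 18.4 for Wfdc2, 14 for Ttr, 6.87 for Rdh5 and 0.135 for Cd52. In microglia it was 17.3 for Ccn3, 10.9 for Fbln1, 9.99 for Efemp1, 9.78 for Slc47a1, 9.46 for Col1a2, 7.26 for Col6a1, 6.41 for Mgp, 6.17 for Igfbp6, 6.1 for Perp, 5.18 for Ecrg4, 5.17 for Gpx8, 4.86 for Islr, 0.166 for Fgl2 and 0.0655 for H2-Q7.

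For 6 genes the classes were called in opposite directions within the tumour pair. The largest class ratio over the smallest was 66.8 for Lcn2, 11.4 for Col1a2, 840 for Igkc, 9.62 for C4b, 18.5 for H2-Q6 and 14.4 for H2-Q7, and these differences between classes were not tested.

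Barcodes with at least 3 Hmga2 UMIs, which the reported comparisons leave out and only the alternative without the Hmga2 limit used, numbered 2 in the old and 510 in the young tumour library, against none in the sham libraries.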

How the results depend on the processing

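Counts are given as higher and lower in old. Genes with at least 5 CPM and 20 UMIs gave 179 and 379 over all barcodes, 95 and 183 in astrocytes, 118 and 180 in endothelium, 325 and 161 in oligodendrocytes, 222 and 165 in microglia and 9 and 27 shared. A minimum of 50 CPM gave 48 and 80, 13 and 29, 18 and 20, 33 and 22, and 34 and 30 in the same order of comparisons. A fold of 1.5 gave 276 and 378, 82 and 131, 136 and 128, 243 and 135, 172 and 97, and 13 shared higher genes. A fold of 3 gave 23 and 94, 7 and 32, 12 and 22, 27 and 20, 17 higher in microglia and 1 shared higher. Fewer or more genes pass such limits by their construction.

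Without the Hmga2 limit there were 159 and 373 genes over all barcodes, 89 lower in astrocytes, 79 lower in endothelium, 149 lower in microglia, and 5 and 10 shared. With only barcodes of 0 Hmga2 UMIs, 5 were shared higher. Equal weight of the 4 classes gave 45 and 89 over all barcodes. Thinning to 1000 UMIs gave 103 lower over all barcodes, 67 higher in endothelium, and 44 and 38 in microglia. Halved marker minimums gave 69 lower in endothelium, 111 higher in microglia and 5 shared higher, and doubled ones 39 and 39 in microglia. The mean of barcode CPM gave 45 higher in microglia. Without likely doublets 1 and 1 gene were shared. Without the 5 leading barcodes, a choice made after the data were seen, 36 were lower in astrocytes and 28 in endothelium. For these settings the cause was not tested.

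Signs turned, as log2 ratios, without likely doublets for Lcn2 (-0.0483) and Tagln (0.144) in oligodendrocytes, S100a8 (-1.98) and S100a9 (-2.43) in microglia, Igkc (0.116) in astrocytes, Glycam1 (1.13) in endothelium, and the neutrophil list median in endothelium (-1.54) and microglia (-1.98). Without the 5 leading barcodes they turned for Spp1 in endothelium (-0.913), Igkc (-0.272) and Tagln (0.121) in oligodendrocytes and the neutrophil list in microglia (-0.0664), and with doubled marker minimums for Spp1 (-1.50). Of 1265 alternative values for named genes 819 stayed near the reported one, 436 moved and 10 turned. Of 662 for lists 466 stayed, 193 moved and 3 turned. No paired analysis was possible because each group is 1 library, and no library could be left out for the same reason. Depth limits low genes: none under 50 UMIs over both libraries entered.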
